A study of Mus musculus with 8 samples.

Results

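The MHC class I presentation genes described here were read from the deposited count table by symbol: H2-K1, H2-D1, B2m, Tap1, Tap2, Tapbp, Psmb8, Psmb9, Psmb10 and Nlrc5. All 10 members were found among 24391 gene symbols, and all 10 passed the filter on low counts that kept 15980 genes. The libraries came from atherosclerotic lesions of the brachiocephalic artery of C57BL/6 mice, wild type for a smooth muscle lineage tracing line, after 18 weeks of Western diet. IgG_Control animals (4) received control immunoglobulin G and IL1_AB animals (4) received an antibody against interleukin-1β (IL-1β), and every other feature in the labels was shared by the 8 animals. Each library is 1 animal's vessel segment, which the labels describe as a mixture of cells, and dose and schedule are not given in the sources used here.

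MHC class I molecules show peptides from inside the cell to CD8 T cells and are watched by natural killer cells. A heavy chain, in these mice H2-K1 or H2-D1, pairs with the light chain B2m. Peptides are cut by the proteasome, whose Psmb8, Psmb9 and Psmb10 subunits replace standard catalytic subunits in cells exposed to interferon, and are pumped into the endoplasmic reticulum by the Tap1 and Tap2 transporter. Tapbp encodes tapasin, which bridges that transporter and the empty heavy chain, and Nlrc5 encodes the transactivator that acts at class I promoters through a shared module of S, X and Y boxes. Almost every nucleated cell makes class I, and in lesions macrophages, endothelium and smooth muscle cells all do.

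The promoters are shown with every match to the letters of an X2 half-site or a Y box marked. A mark shows spelling only, and a marked stretch need not belong to the S, X and Y module. The S box and the rest of the X box were not searched for or marked. No relation between these letters and the fold changes was tested. Below are the 190 bases before the annotated start of H2-K1, H2-D1, B2m and Tap1, from RefSeq on GRCm38.p6 (the counts use mm9), with capitals marking GGGGA followed directly by TTCCC (a kappa-B site), GAAA and GAAA with any 2 bases between (an interferon-stimulated response element), TGACG (an X2 half-site) and CCAAT or its inverse ATTGG (a Y box).
H2-K1, chr17:34000348-34000537, minus strand: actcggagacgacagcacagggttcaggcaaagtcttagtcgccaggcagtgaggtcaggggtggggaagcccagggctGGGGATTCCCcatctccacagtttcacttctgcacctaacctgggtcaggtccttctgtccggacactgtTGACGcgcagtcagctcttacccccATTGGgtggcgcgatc
H2-D1, chr17:35262904-35263093, plus strand: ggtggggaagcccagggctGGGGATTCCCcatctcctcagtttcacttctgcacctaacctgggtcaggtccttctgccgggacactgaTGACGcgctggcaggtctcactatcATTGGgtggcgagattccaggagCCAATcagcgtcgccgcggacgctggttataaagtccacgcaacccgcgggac
B2m, chr2:122147497-122147686, plus strand: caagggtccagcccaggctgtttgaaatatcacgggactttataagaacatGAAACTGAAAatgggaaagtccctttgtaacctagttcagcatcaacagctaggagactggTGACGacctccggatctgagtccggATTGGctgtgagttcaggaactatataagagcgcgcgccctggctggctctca
Tap1, chr17:34187366-34187555, plus strand: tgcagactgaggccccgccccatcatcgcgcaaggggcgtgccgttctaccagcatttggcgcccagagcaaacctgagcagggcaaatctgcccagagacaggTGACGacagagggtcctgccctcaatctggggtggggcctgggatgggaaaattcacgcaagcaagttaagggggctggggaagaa

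In H2-K1, H2-D1 and B2m, TGACG stands exactly 20 bases before ATTGG. That spaced pair, searched on both strands with TGACG and ATTGG not overlapping, was in 31 of 32544 promoter windows in the RefSeq table, each from 250 bases before to 50 after a start (0.0953%). The spacing was taken from these 3 promoters, so their own matches follow from that choice and only the share over all windows is a count. H2-M3, another class I chain, also held the pair, as did genes that encode no class I chain, such as Calu, Nasp and Per1. The kappa-B letters were in 2 members, H2-K1 and H2-D1, and in 0.108% of windows. The interferon response letters were in B2m alone of the members and in 3.45% of windows. Only that spelling was searched, so a member without it may still hold an interferon-stimulated response element. TGACG alone was in 5 of the 8 members with a window (20.9% of windows) and CCAAT in 6 (37.4%). The windows of Tap1 and Psmb9 overlap on opposite strands by 275 bases, with starts 226 bases apart, so both genes share the Tap1 sequence above. Tap2 and Nlrc5 had no entry in the table. These are matches of letters in a window and were not tested as binding sites.

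Assigned counts ranged from 20137336 to 29453014 per library. Smooth muscle genes (Acta2, Myh11 and 5 others) summed to 1453 to 3974 CPM (counts scaled to library size by the trimmed mean of M values) per library and 10 macrophage genes to 4051 to 10802, so transcripts of both cell types were present. Several libraries stood apart. IgG animal 2 and antibody animal 3 had the highest shares of alignments placed at several sites, 48.0% and 43.0%, against 35.2% to 40.4% in the other 6. Antibody animal 3 also had the highest brown fat marker sum (4239 CPM, others 1158 to 1805) and the lowest T cell marker sum (17.02 CPM, others 26.5 to 61.0). IgG animal 1 had the highest thymocyte sum (141 CPM, others 62.0 to 119) and the lowest macrophage sum. The animals' values below are given in order of number.

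Blocking IL-1β was compared with IgG for each member. The surface molecule's genes had the most negative values, about 0.25 lower on the log2 scale, and the loading, proteasome and regulator genes had values near 0. By the edgeR quasi-likelihood F-test, with p adjusted by Benjamini-Hochberg over all genes kept, 0 of 10 members passed an adjusted p of 0.05 (background 0%, with 0 of 15980 genes), and the smallest adjusted p of a member was 0.9997. Members with an unadjusted p below 0.05 numbered 0 with edgeR (background 3.19%), 1 with DESeq2 (2.95% of all genes) and 1 with limma-voom (2.91%), H2-K1 in both. Of the 10 fold changes, 8 were below 0 (background 52.3%) and 2 above (background 47.7%), with a median of -0.08 against -0.01 over all genes kept.

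H2-K1, the heavy chain gene H-2K (mm9 chromosome 17, 34132957 to 34137278), had 615, 712, 652 and 686 CPM in IgG animals and 554, 506, 581 and 584 CPM in antibody animals. The highest antibody animal was under the lowest IgG animal, a separation that held for 1 of 10 members and for 1.96% of all genes kept. The means were 666 ± 42.2 and 556 ± 36.2 CPM (SD, n = 4 each), a log2 fold change of -0.26 ± 0.12 (SE; 95% interval -0.54 to 0.01). Unadjusted p was 0.0604 with edgeR, 0.0100 with DESeq2 and 0.0496 with limma-voom, and adjusted p was above 0.99 in each.

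H2-D1, the second classical heavy chain (chromosome 17, 35400039 to 35404442), had 227, 299, 338 and 314 CPM with IgG and 245, 239, 247 and 261 CPM with antibody. IgG animal 1 was the lowest of all 8, so the groups overlapped, while the antibody animals lay within a narrow range (248 ± 9.38 CPM against 294 ± 47.6, SD, n = 4). The log2 fold change was -0.25 ± 0.14, and without IgG animal 1 it was -0.35 ± 0.11 (adjusted p = 0.511, edgeR). Without IgG animal 3 it was -0.17.

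B2m, the light chain gene on chromosome 2 (121973423 to 121978818), had 719, 611, 938 and 842 CPM with IgG and 601, 607, 623 and 773 CPM with antibody. IgG animals 3 and 4 were the highest and the groups overlapped. The log2 fold change was -0.26 ± 0.17 (95% interval -0.64 to 0.13), and -0.15 ± 0.17 without IgG animal 3. Uniquely placed reads were counted, so H2-K1 and H2-D1, which are alike in sequence, are measured from the reads that tell them apart.

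**Figure D1:**
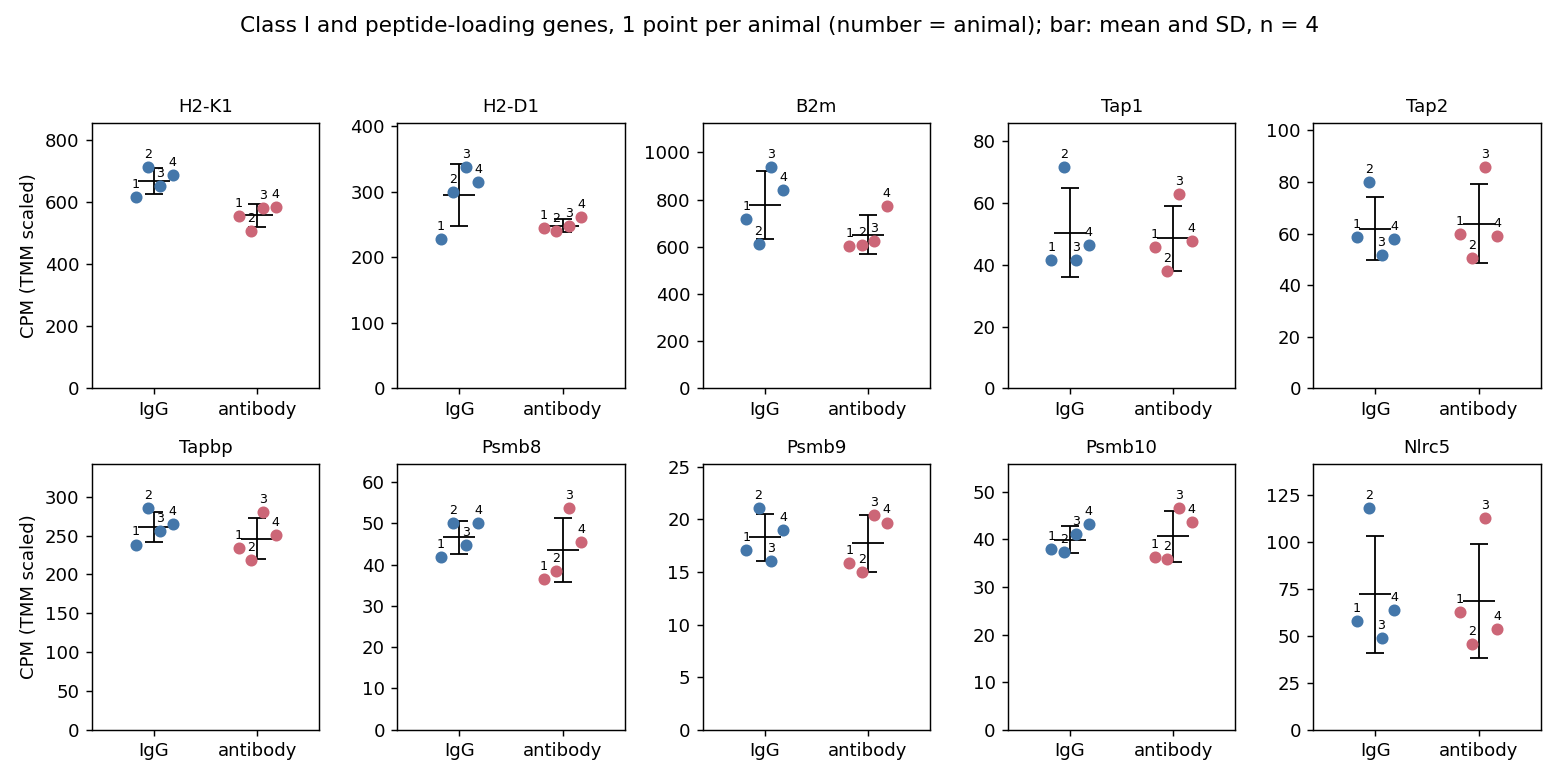
CPM of each member by animal (points numbered by animal; blue IgG, red antibody; bars are mean and SD, n = 4; each panel's axis starts at 0). For H2-K1 the 4 antibody animals, at 506 to 584 CPM, lie under the 4 IgG animals, at 615 to 712, and for Nlrc5 IgG animal 2 and antibody animal 3 lie far above the rest.

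Pan-leukocyte and macrophage markers also had fold changes below 0, and none passed the test. Other leukocyte lists were mixed. Below 0 were 5 of 7 dendritic, 7 of 8 T cell and 2 of 5 kept thymocyte markers, with 2, 1 and 3 above. All 5 pan-leukocyte markers had negative fold changes, their sums ranging from 641 to 1182 CPM with IgG and from 670 to 851 CPM with antibody, which overlap, and none was at 0 in any library. Ptprc, which encodes CD45, had 230, 263, 331 and 308 CPM with IgG and 196, 219, 194 and 232 with antibody (log2 fold change -0.43 ± 0.14, adjusted p = 0.9997, edgeR). All 10 macrophage markers had negative values too, at 4051 to 10802 and 4744 to 7033 CPM summed. The part of any of these lists in the class I values was not tested. In bulk tissue fewer cells of a type and less RNA per cell cannot be told apart.

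The transporter genes showed no direction. Tap1 (chromosome 17, 34324501 to 34334170) had 41.5, 71.6, 41.5 and 46.4 CPM with IgG and 45.7, 37.9, 63.0 and 47.5 with antibody, so both groups held a high animal. Its log2 fold change was -0.05 ± 0.21. Tap2 (34341424 to 34353266) had 58.5, 79.8, 51.6 and 57.8 CPM with IgG and 59.6, 50.7, 85.8 and 58.9 with antibody, a log2 fold change of 0.04 ± 0.19. The same animals, IgG 2 and antibody 3, were high for both genes. Tapbp (34056423 to 34066235), the tapasin gene, had 238, 285, 256 and 264 CPM with IgG and 234, 218, 280 and 251 with antibody (-0.09 ± 0.12). Its spread was small, with a highest value 1.31 times the lowest.

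The inducible proteasome subunits also had overlapping groups. Psmb8 (34335140 to 34338399) had 41.9, 49.99, 44.8 and 49.98 CPM with IgG and 36.4, 38.6, 53.7 and 45.4 with antibody (-0.10 ± 0.14). Psmb9 (34319044 to 34324275), beside Tap1, had 17.1, 21.1, 16.1 and 19.0 CPM with IgG and 15.8, 15.001, 20.4 and 19.7 with antibody (-0.05 ± 0.14). Psmb10, on chromosome 8 (108459628 to 108462292), had 38.0, 37.3, 41.2 and 43.3 CPM with IgG and 36.3, 35.9, 46.6 and 43.7 with antibody (0.02 ± 0.12). In all 3 genes antibody animals 1 and 2 held the lowest values of the series and antibody animals 3 and 4 lay among the upper values, so the antibody group split into a low and a high pair.

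Nlrc5, the class I transactivator (chromosome 8, 96996663 to 97051172), varied most between animals. It had 57.8, 118, 48.8 and 63.6 CPM with IgG and 62.8, 45.6, 113 and 53.4 with antibody. In each group 1 animal was far above the rest, and the highest value was 2.59 times the lowest, against 1.30 to 1.89 times in the other members. The log2 fold change was -0.07 ± 0.34 (95% interval -0.83 to 0.69), the widest interval of the 10, and it was 0.27 ± 0.29 without IgG animal 2 and -0.42 ± 0.29 without antibody animal 3. Without both it was -0.06 ± 0.15.

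**Figure D2:**
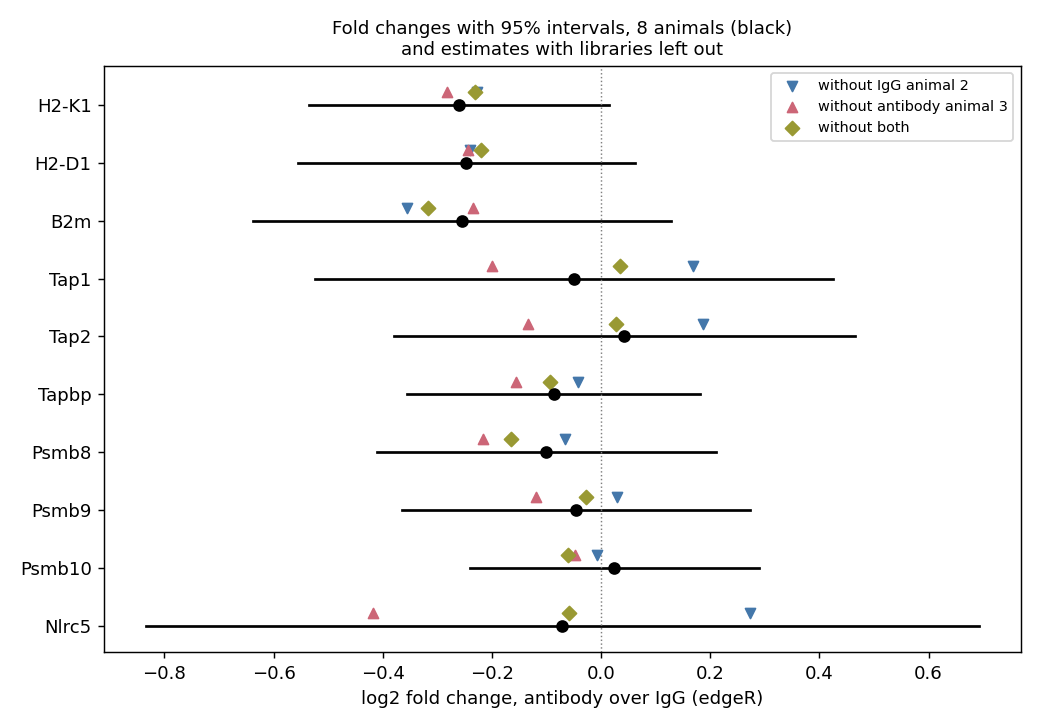
Log2 fold change of antibody over IgG for each member (black point, line the 95% interval, 8 animals), with estimates without IgG animal 2, without antibody animal 3 and without both. In the 4 fits drawn H2-K1, H2-D1 and B2m lie between -0.36 and -0.22, and Nlrc5 moves from -0.42 to 0.27.

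The intervals bound the changes. For all 10 members the 95% interval of the fold change lay within 2-fold either way, which was so for 81% of genes kept, and the median half-width was 0.31 on the log2 scale for members and 0.40 over all genes. For Tapbp the interval was -0.35 to 0.18, for Psmb10 -0.24 to 0.29 and for Tap2 -0.38 to 0.46. The count of members below 0 depended on antibody animals 2 and 3: it was 5 of 10 without antibody animal 2 (median -0.0086) and 10 of 10 without antibody animal 3 (median -0.21). Without IgG animal 2 it was 6 (median -0.02), and without that animal and antibody animal 3 together 8 (median -0.08).

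Members differed in how they varied between animals. IgG animal 2 and antibody animal 3 held the highest pair of values for 6 of 10 members (Nlrc5, Tap1, Tap2, Tapbp, Psmb8 and Psmb9) and for 9.91% of all genes kept; this count was chosen after the values were seen. H2-K1 was highest of all in IgG animal 2, while B2m and Psmb10 were each the third lowest of 8 there. Across the 8 animals Nlrc5 followed Tap2 (Pearson r = 0.98, Spearman rho = 0.81) and Tap1 (r = 0.96, rho = 0.86) in log2 CPM, and Tapbp followed Psmb8 (r = 0.92, rho = 0.93), whereas Nlrc5 and B2m had r = -0.46 and rho = -0.17. Without IgG animal 2 and antibody animal 3 the first 2 were r = 0.86 and 0.73 over 6 animals, Tapbp with Psmb8 was 0.88, and Nlrc5 with B2m -0.02. H2-K1 and B2m, whose products form 1 complex, had r = 0.46 over 8 animals and 0.87 over those 6, and H2-K1 and Tapbp 0.75 and 0.92. These are descriptions over pooled groups, chosen from 45 pairs. The members share library scaling and the multimapping share, which was highest in the same 2 animals, and the part of the latter was not tested.

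**Figure D3:**
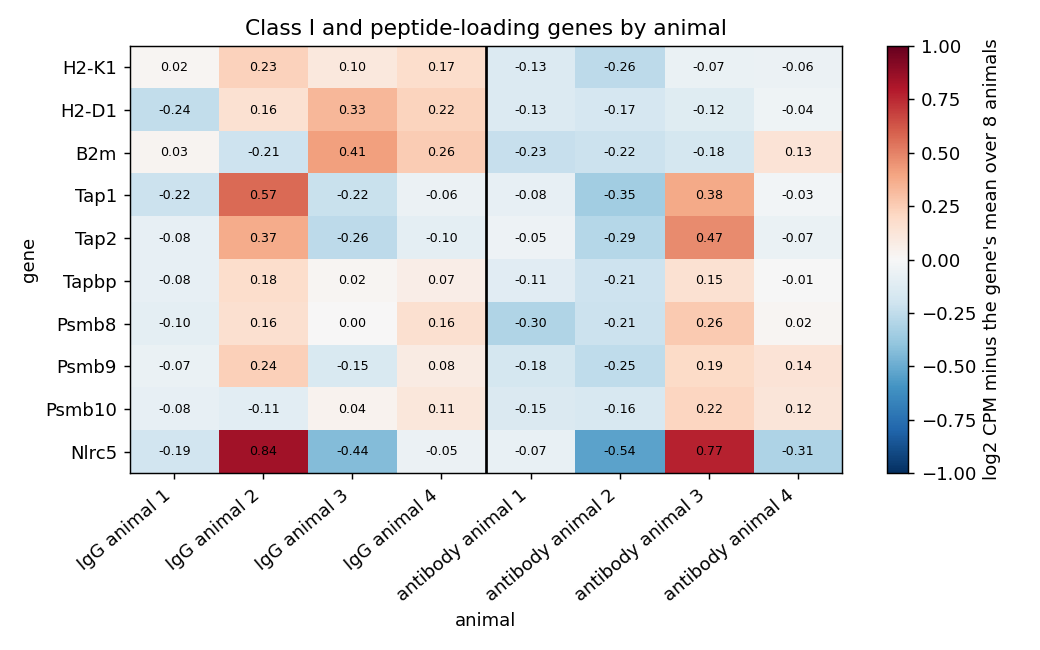
Log2 CPM of each member in each animal minus that gene's mean over the 8 animals (red higher, blue lower; the line divides IgG from antibody). Nlrc5, Tap1 and Tap2 are highest in IgG animal 2 (0.84, 0.57 and 0.37) and antibody animal 3 (0.77, 0.38 and 0.47), where B2m is at -0.21 and -0.18.

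By a rule of likeness, the genes outside the 10 closest to the mean of the members' standardised log2 CPM over 8 animals were 9330175E14Rik (r = 0.96), Rps6kb1, which encodes a ribosomal S6 kinase (0.95), Mir23a, Wdr48 and Aim1 (0.94 each) and Gm5088 (0.94). They are the highest of 15970 values, so high r follows from the ranking. Spearman rho was 0.88 to 0.98, and without antibody animals 1 and 2, the farthest from the median, r was 0.89 to 0.97. Rps6kb1 and Wdr48 varied little, from 68.7 to 77.3 and from 53.1 to 60.5 CPM. Mir23a, 9330175E14Rik and Gm5088 lay at 0.315 to 2.49 CPM.

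Levels are compared between genes per kilobase of exon, as CPM per kilobase. The mean over 8 animals was 832 ± 148 for B2m (SD, n = 8), 371 ± 42.0 for H2-K1, 156 ± 23.2 for H2-D1 and 92.2 ± 8.36 for Tapbp, and the ranges of these 4 did not overlap. Below them came Psmb8 at 36.9 ± 4.89 and Psmb10 at 31.7 ± 3.13, whose ranges overlapped. Tap2 (25.2 ± 5.17), Psmb9 (22.4 ± 2.86) and Tap1 (16.7 ± 3.96) followed, each overlapping its neighbour, and Nlrc5 was lowest at 10.1 ± 4.10, overlapping Tap1. The heavy chain levels count only reads that tell the chains apart but are divided by full exon length, so they are too low by an unknown amount and their place below B2m is uncertain.

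Within a library, ratios between partner genes need no scaling between libraries. For 6 such ratios the group labels were permuted exactly (two-sided, 70 assignments, smallest possible p 0.0286). H2-K1 over B2m was -1.15 ± 0.31 with IgG and -1.16 ± 0.14 with antibody (log2 ratio of reads per kilobase, SD, n = 4; exact p = 0.943). H2-D1 over B2m was -2.41 ± 0.27 and -2.40 ± 0.12 (exact p = 0.971). No shift in the balance of heavy and light chain transcripts was detected.

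Psmb8 over Psmb5, the inducible over the standard subunit it replaces, was -0.39 ± 0.33 with IgG and -0.51 ± 0.13 with antibody (exact permutation p = 0.571). Psmb9 over Psmb6 was -1.98 ± 0.47 and -2.09 ± 0.15 (exact permutation p = 0.686), and Psmb10 over Psmb7 was -1.68 ± 0.34 and -1.83 ± 0.07 (exact permutation p = 0.486). In linear terms Psmb8 was at 0.611 to 1.02 times Psmb5 across animals, Psmb9 at 0.171 to 0.381 times Psmb6 and Psmb10 at 0.258 to 0.426 times Psmb7. Tap1 over Tap2 was -0.56 ± 0.14 and -0.63 ± 0.06 (exact permutation p = 0.457). Adjusted over the 6 ratios, every exact permutation p was 0.971. In each of the 6 ratios IgG animal 2 held the highest value of its group and of the series, with Psmb7 at 66.7 CPM there against 99.5 to 123 in the other animals. Without that animal the differences were 0.03 for Psmb8 over Psmb5, 0.09 for Psmb9 over Psmb6, -0.0015 for Psmb10 over Psmb7 and 0.13 for H2-K1 over B2m.

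**Figure D4:**
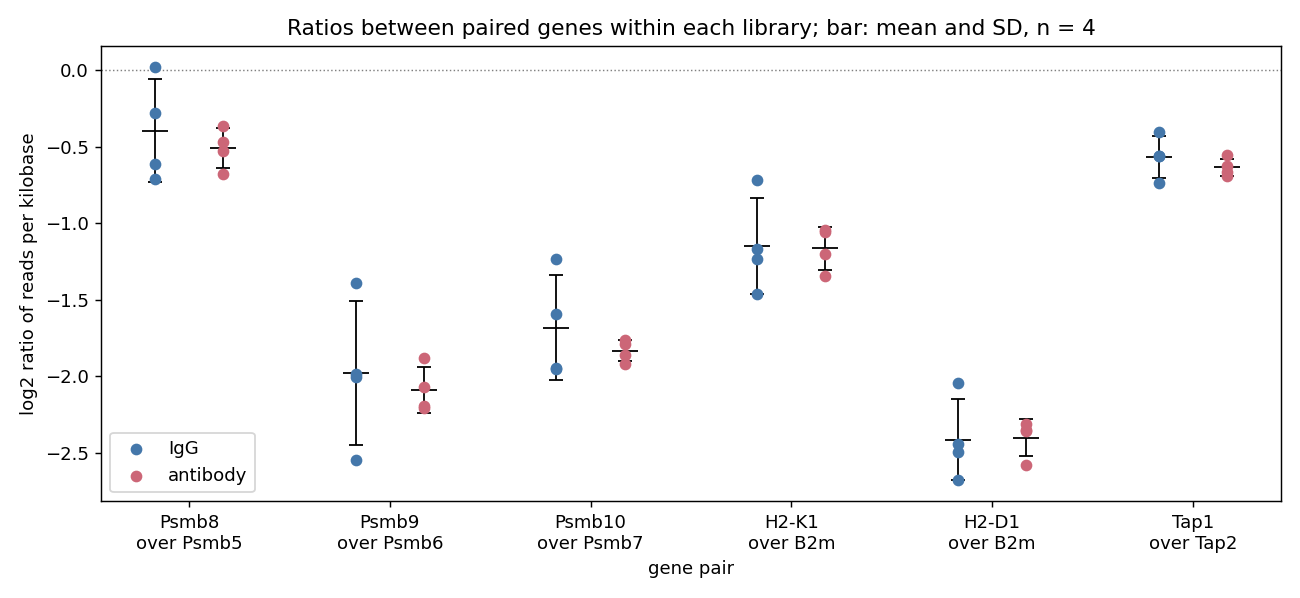
Log2 ratio of reads per kilobase for 6 gene pairs, 1 point per animal (blue IgG, red antibody; bars are mean and SD, n = 4). IgG animal 2 is the top blue point of every pair, at 0.02 for Psmb8 over Psmb5, and the groups overlap for all 6 pairs.

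Other genes of the pathway were read from fixed lists, and 0 genes of any of them passed the edgeR test (H2-Ob passed with DESeq2, below). Of 23 further class I chains and relatives, 16 were kept, 9 below 0 and 7 above (median -0.09). H2-M3, which presents formylated peptides, had 19.9, 24.3, 24.9 and 22.6 CPM with IgG and 17.8, 18.6, 17.2 and 19.1 with antibody. It was the 1 gene of the 16 kept whose groups did not overlap, against 1.96% of all genes kept. Its log2 fold change was -0.33 ± 0.11 (unadjusted p = 0.0113, adjusted p = 0.9997, edgeR). Over all genes kept, 3.19% had an unadjusted p under 0.05 with edgeR. H2-M2 had -0.65 ± 0.28, H2-Q4 -0.36 ± 0.20 and H2-T10 -0.32 ± 0.19. For H2-Q4, IgG animal 2 at 113 CPM stood above the other 7, at 54.7 to 77.4, and without it the fold change was -0.13 ± 0.12. Without IgG animal 4, that of H2-M2 was -0.38 ± 0.24. H2-Q6, H2-Q7, H2-Q8 and H2-Q9, close copies of each other, had no count in any library, which for uniquely placed reads does not show that they were silent.

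Of 11 helpers of loading and peptide trimming, 8 were below 0 and 3 above, all between -0.16 and 0.10. Calr, which encodes the chaperone calreticulin, had -0.16 ± 0.19, Uggt1, the glycoprotein folding sensor, -0.11 ± 0.14, Tpp2, a cytosolic peptidase, -0.10 ± 0.12 and Sec61a1, a subunit of the membrane channel, -0.12 ± 0.14. Without IgG animal 3 these 4 were between -0.03 and -0.0086, and the list had a median of -0.0007 with 6 of 11 below 0. Of 20 genes listed as standard proteasome and activator subunits 19 were kept, all between -0.02 and 0.14. The list also holds Pomp, which encodes an assembly factor, and Psmb11, a gene of the thymocyte list that was not kept. Of the 19, 15 were above 0 and 4 below (18 and 1 with total-count scaling). The count turned with single libraries: 15 of 19 were below 0 without IgG animal 2, 13 without antibody animal 3, 10 without antibody animal 4, 0 without IgG animal 3 and 19 without IgG animal 2 and antibody animal 3 together. Psmb2 had 0.13 ± 0.15, Psmb7 0.14 ± 0.18, Psma6 0.07 ± 0.17 and the activator subunit Psme2 0.05 ± 0.12. Psmb5 and Psmb6 were at 0.00 ± 0.15 and 0.03 ± 0.16. Values above 0 for Psmb2, Psmb7, Psma6, Psme2, Psmb5 and Psmb6 turned negative without IgG animal 2 and antibody animal 3 together.

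Upstream regulators were mixed, with 22 of 24 kept, 14 below 0 and 8 above. Ciita, the class II counterpart of Nlrc5, had 27.7, 51.0, 35.6 and 43.9 CPM with IgG and 27.3, 25.4, 26.0 and 28.7 with antibody (-0.56 ± 0.18, adjusted p = 0.9997, edgeR). Irf1, an activator of class I promoters, had -0.20 ± 0.13, Irf8 -0.24 ± 0.17 and Ifngr2, a chain of the interferon-γ receptor, -0.25 ± 0.14. Without IgG animal 2 the value of Irf1 was -0.06 ± 0.09, and without IgG animal 3 those of Irf8 and Ifngr2 were -0.16 ± 0.18 and -0.15 ± 0.14. Without IgG animal 1 that of Irf8 was -0.39 ± 0.11.

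The 16 interferon-stimulated genes read for comparison had a median of 0.60, with 16 above 0. The count was 15 of 16 with RLE size factors or no filter and 14 of 15 with DESeq2, at medians of 0.58 to 0.59. With limma-voom and the replicate block 15 of 16 were above 0, at medians of 0.34 and 0.31. Without antibody animal 3 the median was -0.12 with 10 of 16 below 0. Ifit1, one of them, had 182 CPM in that animal and 20.8 to 40.1 in the other 7, and Rsad2 had 343 against 29.4 to 71.3. Ifit3 had a log2 fold change of 1.44 ± 0.62 and Usp18 1.14 ± 0.55, and without antibody animal 3 these were 0.27 ± 0.23 and 0.12 ± 0.20. Nlrc5 was high in that animal and in IgG animal 2, where Ifit1 was at 21.9 CPM and Rsad2 at 49.4, within the range of the others. Irf1 was highest in IgG animal 2, at 79.7 CPM against 50.9 to 58.6.

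The 8 class II genes were all below 0, with a median of -0.62 against -0.08 for the class I members; the difference itself was not tested. H2-Aa had 205, 328, 352 and 394 CPM with IgG and 178, 223, 166 and 237 with antibody (-0.67 ± 0.21), with H2-Eb1 at -0.60 ± 0.19, Cd74 at -0.64 ± 0.21 and H2-Ob at -1.19 ± 0.22 (adjusted p = 0.9997 for each, edgeR). With DESeq2 the adjusted p of H2-Ob was 0.00365. All 5 B cell markers were below 0 as well. Their sums ranged from 4.33 to 16.2 CPM with IgG and from 2.93 to 5.82 CPM with antibody. Macrophage markers, 10 of 10 below 0, summed to 4051 to 10802 CPM with IgG and 4744 to 7033 with antibody. Dendritic markers, 5 of 7 below 0 and 2 above, summed to 175 to 543 and 288 to 445 CPM. The part of any of these lists in the class II values was not tested. Leaving out any single library kept all 8 class II genes below 0.

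Markers of cells that read class I were at low levels. All 14 kept markers of CD8 T and NK cells (of 15) were below 0, with a median of -0.43. Without IgG animal 1 it was 10 of 14 with a median of -0.31, with limma-voom 12 of 14, and without IgG animal 2 and antibody animal 3 together 11 of 14 with a median of -0.28. Without IgG animal 3 or antibody animal 2 the median was -0.68 or -0.63. Cd3g had 4.55, 2.91, 1.59 and 2.23 CPM with IgG and 0.976, 2.14, 0.963 and 1.38 with antibody. It encodes a CD3 chain of the T cell receptor complex and is also in the T cell list. Its log2 fold change was -1.03 ± 0.39, and -1.35 without antibody animal 2 and -0.70 without IgG animal 1. Cd8a had 14.03, 7.65, 2.13 and 3.24 CPM with IgG and 4.59, 10.6, 3.41 and 4.13 with antibody, and its -0.24 ± 0.58 became 0.40 ± 0.52 without IgG animal 1, the animal with the highest thymocyte sum. Ccl5 had -0.66 ± 0.31, Nkg7 -0.53 ± 0.33 and Gzmb, with as few as 4 counts in a library, -1.04 ± 0.69. Gzmb was at -0.43 ± 0.66 without IgG animal 2 and -1.61 ± 0.75 without antibody animal 4. Among 11 listed receptor genes with an entry, 4 were kept: Klra2 (-0.75 ± 0.35), Pirb (-0.29 ± 0.20), Cd160 (0.14 ± 0.29) and Cd244 (-0.32 ± 0.29), whose product binds CD48 and not class I. Klra2 was at -0.36 ± 0.27 without IgG animal 2. Without IgG animal 3, Cd244 was at -0.04 ± 0.25, Pirb at -0.17 ± 0.20 and Cd160 at -0.0016 ± 0.29.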

How the data were processed

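Whole lesions were profiled by RNA sequencing, 1 library per animal. The deposited counts are reads per gene symbol, made by the authors with featureCounts 1.4.6-p4 over exons of the UCSC mm9 annotation, per the file headers. The header shows no strand or multimapping option, so reads of an overlapping antisense transcript that the annotation lacks would count for a gene. CASAVA, STAR, Subread and DESeq2 are also named in the submitters' processing notes. A deposited status table gave the alignment counts by class. Here, edgeR 4.0.16 (R 4.3.3) was used: filterByExpr (minimum count 10, total 15), TMM scaling, robust quasi-likelihood test on group, Benjamini-Hochberg over 15980 genes, threshold 0.05; SE came from the F statistic. It was also run on simulated independent counts with planted changes larger than those of the members. That run had no outlying libraries and does not bear on changes of the members' size. Alternatives were DESeq2 1.42.0, limma-voom (limma 3.58.1), other scaling, no filter, the replicate block and each library left out. Log2 CPM had a prior count of 2 and ratios 0.5. Exon lengths are the deposited ones.

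The 10 members and all lists were chosen with earlier results of these data known. Named genes are the members, up to 4 genes per list with the smallest p, the genes of the ratios, 6 by likeness, and Irf1, Cd8a and Ptprc; 1 further gene of the rule is not reported here. Of the list symbols, 3 were not found in the table. Libraries differed beyond counting noise (over genes, chi-square divided by its degrees of freedom was at least 26.5 for any pair). Depth was 20137336 to 29453014 assigned counts. Each member had at least 324 counts in every library. Replicate numbers come from the titles and were not treated as pairs: same-numbered animals' deviations had correlations of 0.29, -0.34, -0.13 and -0.00119.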

Additional observations from a re-analysis of the deposited data

Results flagged for a closer look

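Of 20 sets of 4 animals (10 members in each group), 1 held an animal far from the other 3: B2m in antibody animal 4, at 773 CPM, with the other antibody animals at 601 to 623. Its gap to the nearest animal was 0.857 of the group's range on the log2 scale, above the limit of 0.829 for 4 animals. Chance flags about 1 in 20 such sets, the number seen here. That animal was not the highest of its group for any other member except H2-K1 and H2-D1.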

How the results depend on the processing

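No member passed an adjusted p of 0.05 under any of the 15 alternatives, and H2-K1, H2-D1, B2m, Tapbp and Psmb8 kept a negative fold change in all 15. Over all genes, 0 passed in edgeR, 9 with DESeq2 and 0 to 1 with 1 library left out. Members at an unadjusted p under 0.05 were 1 with DESeq2, 1 with limma-voom and 0 to 2 with 1 library left out (H2-K1 and H2-D1 without IgG animal 1, where 9.50% of all genes had such a p), and members below 0 ranged from 5 to 10. With the replicate block the H2-K1 fold change was -0.26 and no call changed; same-numbered animals share only a number. With 1 library left out, values ranged from -0.20 to 0.17 for Tap1, -0.13 to 0.19 for Tap2, -0.12 to 0.028 for Psmb9, -0.048 to 0.075 for Psmb10 and -0.42 to 0.27 for Nlrc5, and for other genes from -0.096 to 0.091 for Psmb5, -0.080 to 0.18 for Psmb6, -0.013 to 0.24 for Psmb7, -0.077 to 0.17 for Psma6, -0.053 to 0.11 for Psme2, -0.0016 to 0.31 for Cd160 and -0.75 to 0.40 for Cd8a. The ratio differences ranged from -0.22 to 0.025 (Psmb8 over Psmb5), -0.30 to 0.089 (Psmb9 over Psmb6), -0.24 to -0.0015 (Psmb10 over Psmb7), -0.12 to 0.13 (H2-K1 over B2m) and -0.076 to 0.14 (H2-D1 over B2m). Psmb5 was -0.0030 with RLE size factors, -0.0021 with no filter, -0.0035 with DESeq2 and -0.0027 with limma-voom, and Cd8a 0.027 with limma-voom. Without IgG animal 2 and antibody animal 3 together, an alternative chosen after seeing the data, signs turned for Tap1 (0.035), Psmb10 (-0.061), Psmb2 (-0.065), Psmb7 (-0.053), Psme2 (-0.028), Psma6 (-0.10), Cd8a (0.015), Psmb5 (-0.17) and Psmb6 (-0.064), and for the ratios of Psmb8 over Psmb5 (0.011), Psmb9 over Psmb6 (0.021), H2-K1 over B2m (0.087) and Tap1 over Tap2 (0.0037). The cause was not tested. With 4 animals per group the 95% intervals of the members had a median half-width of 0.31 on the log2 scale, which limits the size of change that could be seen. Over all genes 52.3% of fold changes were below 0, and 46.2% with total-count scaling.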
